A study of Mus musculus with 28 samples.

Results

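The midbrain of mice was examined 18 h after tumour cells had been placed under the skin, against the midbrain of mice that received only the PBS carrier. The cells were CT-26.WT, a colon carcinoma line that came from a BALB/c mouse. All arrays titled for midbrain at 18 h were taken, 10 of the 28 arrays of the series. They come from 5 biological replicates, and 7832 of the 8726 named genes on the arrays had a value in at least 3 of them. Tumour-bearing mice were male BALB/c animals, 8 weeks old, given 1000000 CT-26.WT cells in 300 µl PBS and killed 18 h later. PBS mice were of the same strain, sex and age and were given 300 µl PBS. Whether 1 mouse or several gave the RNA of a replicate is not stated in the labels, so the p-values measure the spread between these RNA samples.

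Each array carried midbrain RNA of both kinds of mice, 1 in the green dye Cy3 and the other in the red dye Cy5, so a spot gives a ratio and not a level. Replicates 3, 4 and 5 were total RNA, each on 1 array with the tumour RNA in Cy5 and 1 with it in Cy3. Replicates 1 and 2 were polyA RNA, with the tumour RNA in Cy5 on the 1 array of replicate 1 and in Cy3 on the 3 arrays of replicate 2. All values below are log2 ratios of tumour-bearing over PBS mice, so 0 means no difference and a positive value means more signal in tumour-bearing mice. This direction is likely but not certain. The scanner files call their channels A and B, and reading A as Cy3 and B as Cy5 rests on the deposited ratios, which followed B over A with the sign the dye labels give. With the letters the other way round every sign in the text would turn.

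The midbrain holds the dopamine neurons of the substantia nigra and ventral tegmental area, serotonin neurons of the raphe, the colliculi and the periaqueductal grey. It receives signals of peripheral inflammation through circulating cytokines, brain endothelium and ascending nerve pathways, and interleukin 1, interleukin 6 and glucocorticoids are the best known carriers of such signals. At 18 h a subcutaneous inoculum of tumour cells is not yet a grown tumour.

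Of the 10080 spots of an array, 94.7% and 96.8% had a signal above local background in both channels on the arrays of replicate 4, and 97.9% and 84.5% on those of replicate 5. On the arrays of replicate 3 the shares were 32.4% and 49.6%, and on the polyA arrays they lay between 25.7% and 61.0%. A probe was tested where both orientations of all 3 total RNA replicates gave a value, which left 1816 probes, and 1700 probes of 1686 genes after the dimmest 33.3% of all probes was dropped. With replicates 4 and 5 alone, 5151 probes could be tested. Of the 26 dopamine neuron genes sought as markers of the tissue, 13 were on the arrays, and 12 of these had a signal on at least 4 of the 6 total RNA arrays, among them tyrosine hydroxylase (Th) and the transcription factor Pitx3 on all 6. Hypothalamic markers (9 of 9 on the arrays), cerebellar markers (6 of 9) and blood cell markers (10 of 14) had such signals too, so a spot signal alone does not tell these tissues apart.

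No gene passed the test at 18 h. Of 1700 probes, 0 (0%) had an adjusted p under 0.05 in limma's moderated test of the 3 replicates against 0, with Benjamini-Hochberg adjustment, and the lowest adjusted p was 0.979. Without adjustment 48 probes (2.82%) had a p under 0.05, 17 higher and 31 lower in tumour-bearing mice, and leaving out replicate 5 raised this to 74. The median log2 ratio was 0.00, and 49.4% of the probes lay above 0. The ratios were small, since 14 probes were beyond 0.5 in either direction and 2 beyond 1. The median 95% confidence interval reached 0.29 to either side, a 1.22-fold difference, before any adjustment for the number of probes. In a whole tissue, fewer cells of a type and less RNA per cell cannot be told apart, and this holds for every ratio below.

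The ratios of different replicates were unrelated to each other across probes. Pearson's r over the 1700 probes was -0.02 between replicates 3 and 4, -0.03 between 3 and 5 and 0.01 between 4 and 5. These are correlations across genes, which are not independent replicates, and they carry no p. The sign was the same in all 3 replicates for 400 probes (23.5%), 198 higher and 202 lower.

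What the arrays of different replicates shared went with the dye. The dye effect of a probe is the ratio on the array with the tumour RNA in Cy5 minus that on the array with it in Cy3, divided by 2. Across probes it correlated at 0.24 between replicates 3 and 4, 0.68 between 3 and 5 and 0.30 between 4 and 5. Within a replicate the ratios of the 2 orientations, both turned to tumour over PBS, correlated at -0.49 in replicate 3, -0.19 in replicate 4 and -0.76 in replicate 5. The dye effect was larger than the tumour ratio in 56.5%, 55.4% and 69.6% of the probes in replicates 3, 4 and 5. Both are made from the same 2 arrays, so noise of single arrays enters both alike. Such noise alone would make either one the larger about equally often. For single probes 0 of 1700 (0%) dye effects passed at an adjusted p under 0.05 and 173 (10.2%) had an unadjusted p under 0.05, but 95 passed when replicate 4 was left out and 42 when replicate 5 was.

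**Figure D1:**
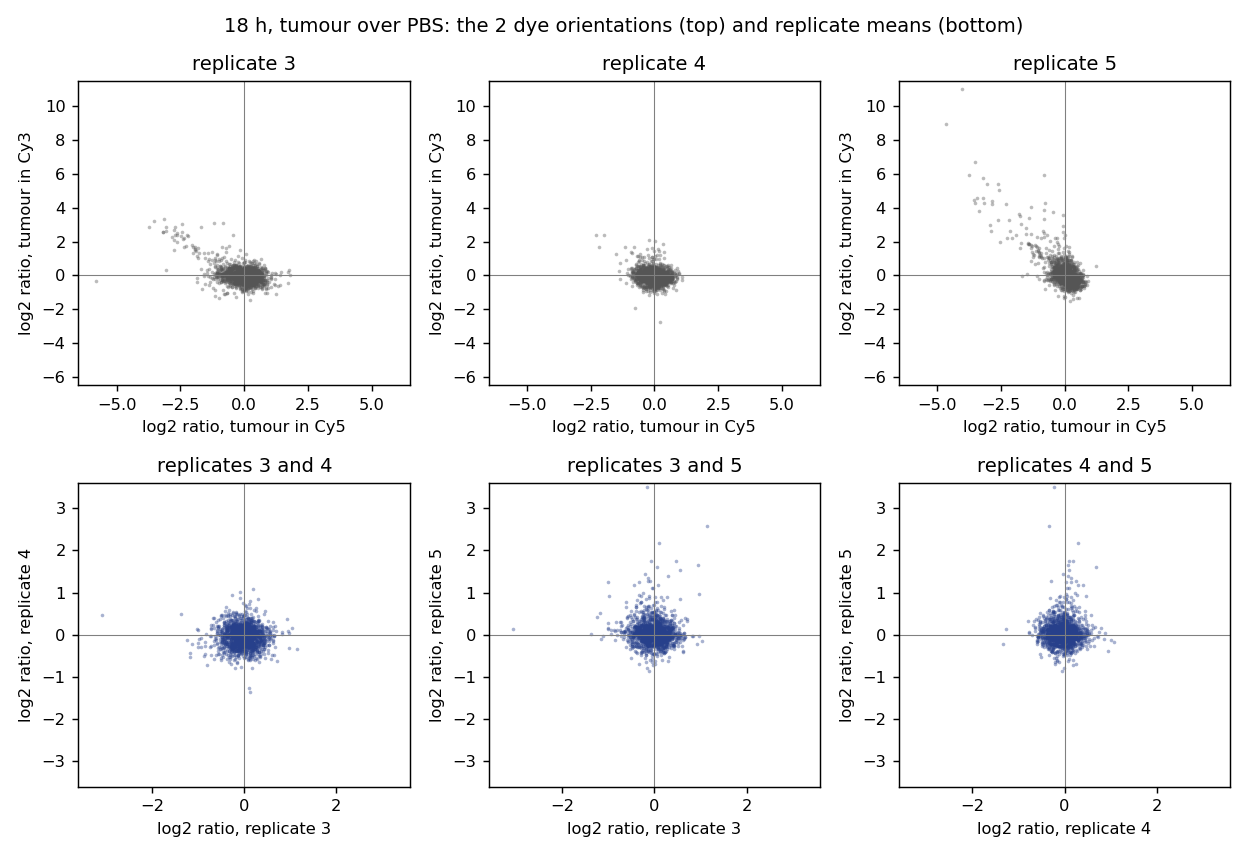
Log2 ratios of tumour-bearing over PBS mice, 1 point per tested probe (1700). The top row sets the array with the tumour RNA in Cy3 (vertical axis) against the array with it in Cy5 (horizontal axis) within each total RNA replicate, where points run from upper left to lower right with r of -0.49, -0.19 and -0.76; the bottom row sets the means of replicates against each other, where r lies between -0.03 and 0.01.

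The 4 probes with the smallest p for the dye effect are extremes, and neither their size nor their sign is typical. Over all 1700 probes the median dye effect was 0.05 and 59.3% lay above 0, while these 4 lay below 0. The standard deviation of the dye effect across probes was 0.49, 0.30 and 0.66 in replicates 3, 4 and 5. The probe of Umps, the enzyme that completes uridine monophosphate synthesis, read -1.40, -1.34 and -0.92 on the arrays of replicates 3, 4 and 5 with the tumour RNA in Cy5. On the arrays with it in Cy3 the same probe read 0.97, 0.75 and 1.06, so the sign turned with the dye in every replicate, and the means of the 3 replicates were -0.21, -0.30 and 0.07. Spaar, which encodes a small lysosomal polypeptide that acts on mTORC1, had a dye effect of -2.85 ± 0.32 (SE, n = 3, adjusted p = 0.068 by limma) and a tumour ratio of 0.25 ± 0.17 (SE, n = 3, adjusted p = 0.979). The probes of 4922502B01Rik and of Rbm33, an RNA-binding protein, had dye effects of -1.52 and -2.37, with tumour ratios of 0.20 and 0.30. The average of the 2 orientations removes an additive dye effect only as far as it is of equal size on both arrays.

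The widest ratios at 18 h were picked with their values known. Hint3, a nucleotide hydrolase of the histidine triad family, had the largest mean, 1.13 ± 0.44 (SE, n = 3, unadjusted p = 0.036, adjusted p = 0.979), with replicate values of 1.15, -0.33 and 2.57. Its array with the tumour RNA in Cy3 read 5.93 in replicate 5, where the array with it in Cy5 read -0.79. Nat8, an N-acetyltransferase known from kidney, averaged 1.04 and had -0.16, -0.23 and 3.50 in replicates 3, 4 and 5, so its mean came from replicate 5 alone. The semaphorin Sema6a averaged -0.82 and had -3.08, 0.48 and 0.14, its mean coming from 1 array of replicate 3 that read -5.83. Basp1, a growth cone protein, averaged 0.90 ± 0.26 (SE, n = 3), with 0.95, 0.08 and 1.66 in the replicates, and the sign of its arrays turned with the dye in each. Of the 8 probes with the largest mean ratios, 5 had opposite signs in the 2 orientations of every replicate, while Hint3, Rnf186 and Sema6a did not. The part of the dye in these means was not tested.

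Among all 1700 probes, 19 (1.12%) had 1 sign on all 6 total RNA arrays, 12 higher (0.706%) and 7 lower (0.412%) in tumour-bearing mice. They were picked for that sign, so it is a description of them and no evidence for them, and each had an adjusted p of 0.979. The plot of these 19 genes by array shows every value.

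**Figure D2:**
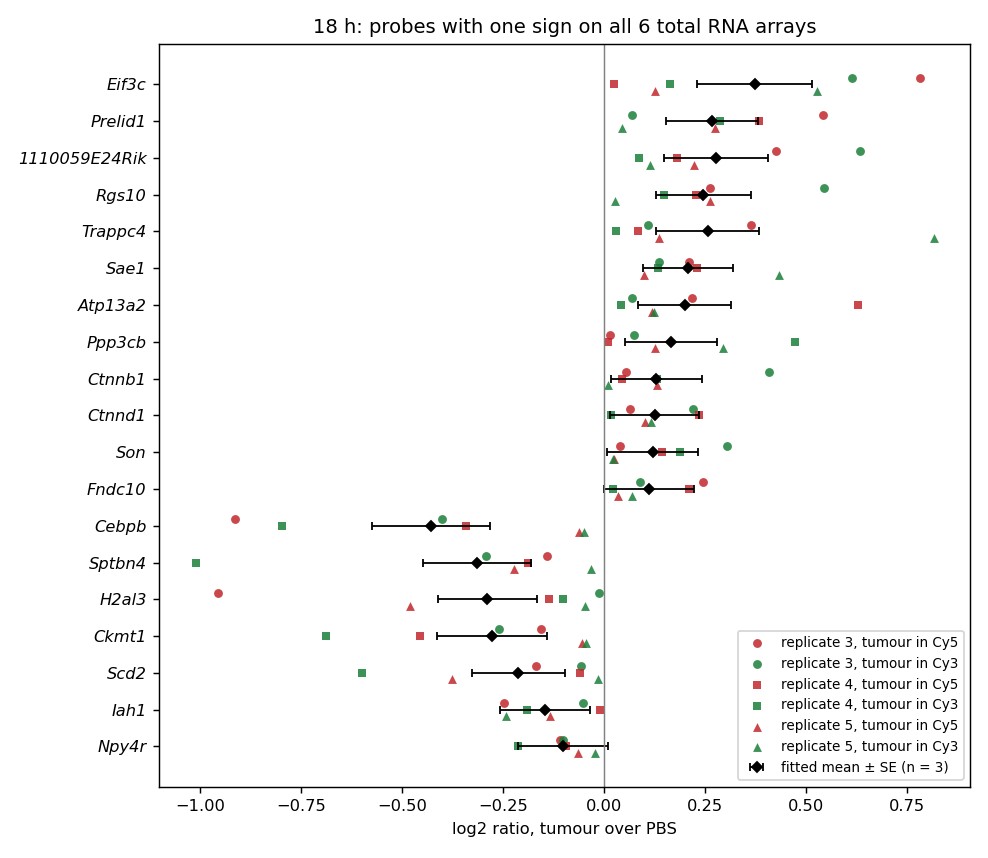
Log2 ratio of tumour-bearing over PBS mice (horizontal axis) for the 19 genes with 1 sign on all 6 total RNA arrays. Coloured points are arrays, the shape giving the replicate and the colour the dye of the tumour RNA; black diamonds are fitted means with their SE (n = 3 replicates), between 0.11 and 0.37 for the 12 higher genes and between -0.43 and -0.10 for the 7 lower ones.

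Cebpb encodes a basic leucine zipper transcription factor that cytokines and glucocorticoids induce in many tissues, and it was the lowest of the 19. In replicate 3 its probe read -0.91 with the tumour RNA in Cy5 and -0.40 with it in Cy3. In replicate 4 it read -0.34 and -0.80, and in replicate 5 -0.06 and -0.05. All 6 arrays were below 0, but those of replicate 5 hardly so, and the mean was -0.43 ± 0.15 (SE, n = 3, unadjusted p = 0.020). Of the polyA replicates, replicate 2 gave -0.13 and replicate 1 no value.

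Sptbn4, the βIV spectrin of the axon initial segment and nodes of Ranvier, averaged -0.31 ± 0.13 (SE, n = 3), with -0.22, -0.60 and -0.13 in replicates 3, 4 and 5. Its single array values went from -1.01 to -0.03. Ckmt1, the mitochondrial creatine kinase that buffers energy at the inner membrane, had -0.21, -0.57 and -0.05. Scd2, the stearoyl-CoA desaturase of brain, which makes oleate for membranes and myelin, had -0.11, -0.33 and -0.20. In Sptbn4, Ckmt1 and Scd2 the lowest of the 3 values was that of replicate 4. H2al3, a histone H2A variant gene by its name, averaged -0.29, Iah1, an esterase homologue, -0.15, and Npy4r, a receptor for the pancreatic polypeptide family, -0.10.

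On the higher side Eif3c, a core subunit of the translation initiation factor eIF3, came first with a mean of 0.37 ± 0.14 (SE, n = 3, unadjusted p = 0.032). Its replicates 3, 4 and 5 gave 0.70, 0.09 and 0.33. Prelid1, which carries phosphatidic acid between the mitochondrial membranes, had 0.31, 0.34 and 0.16 and a mean of 0.27 ± 0.11 (SE, n = 3, unadjusted p = 0.048). These were the only higher genes of the 19 with an unadjusted p under 0.05, and their values were all above 0 in the 3 replicates by construction.

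The other 10 higher genes had unadjusted p above 0.05. Rgs10, a GTPase-activating protein for inhibitory G proteins that microglia and neurons make, had 0.40, 0.19 and 0.15 and a mean of 0.25 ± 0.12 (SE, n = 3). Atp13a2, a lysosomal polyamine pump whose loss causes a juvenile parkinsonism in people, had 0.14, 0.34 and 0.12 and a mean of 0.20 ± 0.12 (SE, n = 3). Ppp3cb, a catalytic subunit of the phosphatase calcineurin, had 0.04, 0.24 and 0.21.

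Trappc4, a subunit of the TRAPP vesicle tethering complex, averaged 0.26, and Sae1, a subunit of the SUMO-activating enzyme, averaged 0.21. The adherens junction proteins β-catenin (Ctnnb1) and p120 catenin (Ctnnd1) both averaged 0.13, with replicate values of 0.07 to 0.23 and 0.11 to 0.14. Son, a nuclear speckle protein needed for splicing, averaged 0.12, Fndc10, a fibronectin type III domain protein, 0.11, and 1110059E24Rik 0.28.

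The polyA replicates, which were not used to choose these genes, did not follow the sign. Of the 14 of the 19 genes with a value in both polyA replicates, 2 had the sign of the total RNA replicates in both, against 266 of 1243 (21.4%) among all tested probes. Replicate 1 alone had the same sign in 6 of 14 genes, and replicate 2 in 5 of 18. Rgs10 read -0.39 and -0.56 in replicates 1 and 2, and Ctnnd1 -0.18 and -0.85. Sae1 was the only one of the 12 higher genes above 0 in both, with 0.37 and 0.05, and Sptbn4 the only one of the 7 lower genes below 0 in both, with 0.00 to 2 decimals and -0.32.

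Across 1243 probes, the ratios of polyA replicate 1 correlated at -0.01 with the mean total RNA ratio and at 0.24 with the dye effect of the total RNA arrays. Those of replicate 2, with the tumour RNA in the other dye, correlated at 0.09 and -0.53. Their mean, in which the dye effect cancels in part, correlated at 0.07 and -0.27. Each thus correlated more strongly, in size, with the dye effect than with the tumour ratio. The 6 total RNA arrays share 1 printed array design, while the polyA arrays are on 2 others, with the 3 arrays of replicate 2 split between them. RNA type, array design and replicate therefore cannot be told apart. With all 5 replicates in 1 fit the means of Rgs10, Ctnnd1 and Son turned to -0.04, -0.13 and -0.02.

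The probes with the smallest p were also chosen after their values were seen. A small p picks probes whose replicates are alike, so their likeness is no finding. Slc38a4, an amino acid transporter, had 0.45, 0.57 and 0.48 in replicates 3, 4 and 5 and a mean of 0.50 ± 0.11 (SE, n = 3, unadjusted p = 0.0024, adjusted p = 0.979). Its arrays with the tumour RNA in Cy5 read -0.24, 0.55 and -0.13, and those with it in Cy3 read 1.13, 0.60 and 1.08. Both polyA replicates were above 0, at 0.07 and 0.25. Pfn2, the brain profilin that regulates actin, averaged -0.40 ± 0.11 (SE, n = 3, unadjusted p = 0.0086), with -0.53, -0.35 and -0.33 in the replicates and 0.01 and 0.03 in the polyA replicates.

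No inflammatory gene that was tested passed, but few could be tested, and the values below do not stand for the untested ones. Over all 30 gene lists examined, 143 genes were tested and 3 had an unadjusted p under 0.05 (Cebpb, Sv2a and Sod1), beside 2.82% of all probes. Interleukin 1β (Il1b) averaged -0.02, with -0.16, 0.12 and -0.02 in replicates 3, 4 and 5. Interleukin 18 (Il18), a cytokine processed like Il1b, also averaged -0.02, and the interleukin 10 receptor chain Il10ra -0.11, with adjusted p of 0.991 for Il1b and Il18 and 0.979 for Il10ra by limma. Of the 20 genes for inflammatory cytokines and their receptors on the arrays these 3 were the ones tested, and 0 passed. Interleukin 6 (Il6) had a signal on 3 of the 6 total RNA arrays and could not be tested. Of 13 genes for chemokines and their receptors on the arrays, 1 was tested.

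The NF-kB subunits Rela and Relb averaged 0.17 and -0.15. They were the 2 genes tested of 17 NF-kB and Jak-Stat genes on the arrays. Irf3, the transcription factor that starts the interferon response, averaged -0.02, and the endothelial adhesion molecule E-selectin (Sele) -0.06. Irf3 was the only gene tested of 15 interferon response genes on the arrays, and Sele of 8 acute phase and vascular genes. The microglial complement gene C1qb, the only gene tested of 12 microglial genes on the arrays, averaged 0.01, with -0.11, -0.06 and 0.20 in replicates 3, 4 and 5. Cd79a, the B cell receptor chain among the blood cell markers, had -0.27, -0.33 and -0.05, and Foxj1, the transcription factor of ciliated ependymal cells, -0.45, -0.11 and -0.26. These last 2 were below 0 in all 3 replicates, with unadjusted p of 0.11 and 0.057 by limma, but each was the only tested gene of its list. In a wider fit, where a replicate could rest on 1 orientation, 5 of 7 blood cell genes were above 0 with a median of 0.21, among them Cd79b, the partner chain of Cd79a, at 0.27. In that fit the choroid plexus genes Sostdc1 and Kl had 0.31 and 0.38, against -0.27 for Foxj1. Sostdc1 read 0.35, 0.45 and 0.15 in replicates 3, 4 and 5. Kl read 1.12, -0.07 and 0.09, so its mean came from 1 array of replicate 3.

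Genes of dopamine neurons did not pass either (0 of 5 tested), and 4 of the 5 lay above 0. Th, the rate-limiting enzyme of dopamine synthesis, had 0.31, 0.10 and 0.11 in replicates 3, 4 and 5 and a mean of 0.17 (unadjusted p = 0.18, adjusted p = 0.979 by limma). The dopamine receptor Drd2 had 0.14, 0.49 and 0.12 and a mean of 0.25 (unadjusted p = 0.082). Both were above 0 in all 3 total RNA replicates and in polyA replicate 1, and below 0 in polyA replicate 2, where they read -0.21 and -0.44. With the tumour RNA in Cy5, as in polyA replicate 1, both were above 0 on all 3 total RNA arrays. With it in Cy3, as in polyA replicate 2, the arrays of replicates 3, 4 and 5 were mixed. They read 0.37, -0.02 and -0.18 for Th and -0.17, 0.60 and -0.12 for Drd2. The part of the dye in these values was not tested. Pitx3, which maintains these neurons and was named after its values were seen, averaged 0.00, Sncg, γ-synuclein, 0.06, and Lmx1b, which specifies them, -0.34 with -1.0, -0.19 and 0.17.

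No gene of the other transmitter systems passed either. Of 5 GABA and glycine genes, 4 were above 0 and the median was 0.04, with Gad2, which makes GABA, at 0.04 and the receptor subunits Gabrb2 and Gabra2 at -0.17 and 0.19. The kainate receptor subunit Grik2 averaged -0.46 (unadjusted p = 0.0595, adjusted p = 0.979 by limma) and the AMPA receptor subunit Gria1 0.15. Grik2 had -1.125, -0.21 and -0.03 in replicates 3, 4 and 5, so its mean came mostly from replicate 3, where 1 array read -1.86. The median of 10 genes of synaptic vesicle release was 0.01. In that list Sv2a, a glycoprotein of synaptic vesicles, stood at 0.80 with an unadjusted p of 0.020, but its 3 arrays with the tumour RNA in Cy5 read -0.71, -0.11 and -0.04 and those with it in Cy3 1.64, 0.48 and 3.56.

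The tested myelin and astrocyte genes had ratios between -0.19 and 0.11. The means of all 4 oligodendrocyte genes tested were above 0, beside 49.4% of all genes tested, with a median of 0.05. The highest, the myelin glycoprotein gene Mag, averaged 0.11. Of these 4 genes, 0 had the same sign in all 3 replicates, and in the wider fit 4 of 6 oligodendrocyte genes were above 0. The astrocyte genes Ndrg2 and S100b averaged -0.19 and 0.04.

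The groups that run energy and protein supply had the most tested genes. Of 32 genes of oxidative phosphorylation, 15 were above 0 and 17 below, and the median was -0.02. The complex I subunit Ndufb3 was highest at 0.35 (unadjusted p = 0.057), with 1 array of replicate 4 at 1.41 and the other 5 between -0.12 and 0.42. Of 24 cytosolic ribosomal protein genes, 8 were above 0 and 16 below, with a median of -0.04, against 49.4% above 0 and a median of 0.00 over all 1686 genes tested. With arrays centred on their median in place of loess the ribosomal median was 0.07, so its direction flipped with the scaling. Rps29, the ribosomal gene with the smallest p, had -0.28, -0.34 and -0.12 in replicates 3, 4 and 5.

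The median of 9 proteasome genes was 0.04. That of 9 antioxidant and metallothionein genes was 0.08, although their lowest member, the cytosolic superoxide dismutase Sod1, averaged -0.29 (unadjusted p = 0.031, adjusted p = 0.979 by limma). Thioredoxin (Txn1) averaged 0.20, glutathione peroxidase 1 (Gpx1) 0.10 and metallothionein 1 (Mt1) 0.10. The median of 7 genes of the heat shock and unfolded protein responses was -0.01, from -0.07 in the endoplasmic reticulum chaperone Hsp90b1 to 0.09 in the disulphide isomerase Pdia6.

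**Figure D3:**
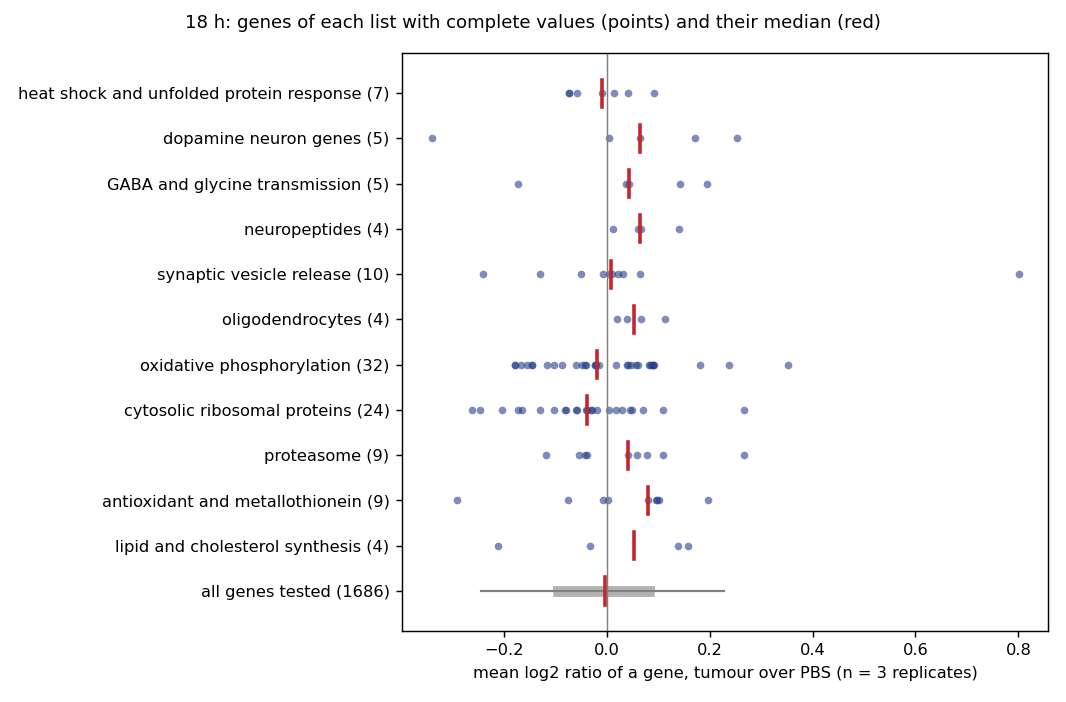
Mean log2 ratio of tumour-bearing over PBS mice (horizontal axis, n = 3 replicates) for the tested genes of each list with at least 4 tested genes, the number in brackets. Points are genes and red bars medians, which lie between -0.04 and 0.08; the bottom row gives all 1686 genes, with a thick bar from the 25th to the 75th percentile and a thin bar from the 5th to the 95th.

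Many clock, immediate early and lipid synthesis genes lacked a value in 1 of the orientations. For these a wider fit was used in which a replicate could rest on 1 orientation. It covered 4352 probes, called 0 (0%), had a lowest adjusted p of 0.953 and gave 170 probes (3.91%) an unadjusted p under 0.05. In it the dye effect does not cancel for the replicates with 1 orientation.

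Nr4a2, a nuclear receptor that dopamine neurons need and that is also an immediate early gene, had a ratio of 0.52 in the wider fit (unadjusted p = 0.0046). Its replicates 3, 4 and 5 read 0.47, 0.52 and 0.58 and polyA replicate 2 read 0.30. The 4 total RNA arrays with a signal were all above 0, but 3 of them, and the polyA arrays of replicate 2, had the tumour RNA in Cy3. The immediate early gene Fos averaged -0.03 in the same fit, from -1.28 in replicate 3 to 1.56 in replicate 5.

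Clock, a core transcription factor of the circadian clock, read -0.28, -0.48 and -0.34 in replicates 3, 4 and 5 (mean -0.37, unadjusted p = 0.027 in the wider fit), while the 2 polyA replicates disagreed, at 0.14 and -0.89. Its replicate 3 rested on 1 array, with the tumour RNA in Cy3. In replicate 5 it read -0.81 with the tumour RNA in Cy5 and 0.13 with it in Cy3. Per2, a repressor in the same clock, averaged 0.22, with 0.69, -0.11 and 0.07 in replicates 3, 4 and 5. Its mean came mostly from replicate 3, which was 1 array with the tumour RNA in Cy5. Gstm1, a glutathione transferase of astrocytes, read 0.34, 0.33 and 0.38 with a mean of 0.35 (unadjusted p = 0.029 in the wider fit). Its single arrays were less alike, with 1 array in replicate 3, -0.19 and 0.84 in replicate 4 and 0.08 and 0.67 in replicate 5. PolyA replicates 1 and 2 gave 0.05 and 0.02. Mcm6, a subunit of the replicative helicase, averaged 0.43, with 0.68, 0.50 and 0.12 in replicates 3, 4 and 5. Its replicates 3 and 4 rested on the array with the tumour RNA in Cy3 alone, and polyA replicate 2 read -0.33. Sqle, squalene epoxidase of cholesterol synthesis and also named after its values were seen, averaged 0.40 in the wider fit. The vascular adhesion molecule Vcam1 averaged -0.23 and the neuropeptide oxytocin (Oxt) -0.41, with unadjusted p of 0.15 and 0.076.

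The ratios at 18 h were set against those at 72 h and 192 h in total RNA replicates, 2 at each of the later times. Between 18 h and 192 h, 0 of 1469 probes (0%) differed at an adjusted p under 0.05 by limma, with a lowest adjusted p of 0.996, and 13 (0.885%) had an unadjusted p under 0.05. Between 18 h and 72 h, 0 of 1169 (0%) differed, with a lowest adjusted p of 0.670, and 62 (5.3%) had an unadjusted p under 0.05. When 72 h replicate 4 was left out, 102 probes were called between 18 h and 72 h. That leaves 72 h replicate 3 alone. On the first of 3 scans, the channels of its Cy3 array had a rank correlation of 0.045, against 0.66 to 0.98 on the other 17 arrays used. The later scans were not compared in this way. The spread at 72 h was then assumed to be that of the other times.

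Cebpb was among the 4 probes with the smallest p for the difference between 18 h and 192 h. It averaged -0.43 at 18 h and 0.46 at 192 h, where its replicates read 0.04 and 0.88, a difference of -0.89 ± 0.29 (SE, unadjusted p = 0.013, adjusted p = 0.996 by limma). At 72 h its replicates read 0.40 and -0.10. Pfn2 averaged -0.40 at 18 h and 0.18 at 192 h, and Pes1, a ribosome biogenesis factor, -0.51 at 18 h and 0.19 at 192 h. Cdh5, the cadherin of endothelial junctions, ran the other way, with 0.19 at 18 h and -0.41 at 192 h.

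For 18 h against 72 h the smallest p belonged to Cntnap2, a neurexin family protein of axons, with 0.22 at 18 h and -0.47 at 72 h (difference 0.69 ± 0.19 (SE), unadjusted p = 0.0063, adjusted p = 0.670 by limma). Tbc1d22bos, an antisense transcript by its name, and Ddx51, an RNA helicase, followed with differences of 0.82 and 0.79. Uaca, a protein that binds the apoptosome factor Apaf1, differed by -0.54. In the first 3 of these the lower of the 2 72 h values was that of replicate 3.

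The 19 genes with 1 sign on all 18 h arrays showed mixed signs later. At 72 h, 8 of 14 had the sign of 18 h in replicate 3 and 10 of 17 in replicate 4. At 192 h, 10 of 19 did in replicate 3 and 7 of 18 in replicate 4. These counts are a description and no result about the 19 genes, since the share over all tested probes at these times was not computed. Scd2, at -0.21 at 18 h, read 1.40 and -0.02 in the 72 h replicates and 0.11 and -0.02 in the 192 h replicates.

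**Figure D4:**
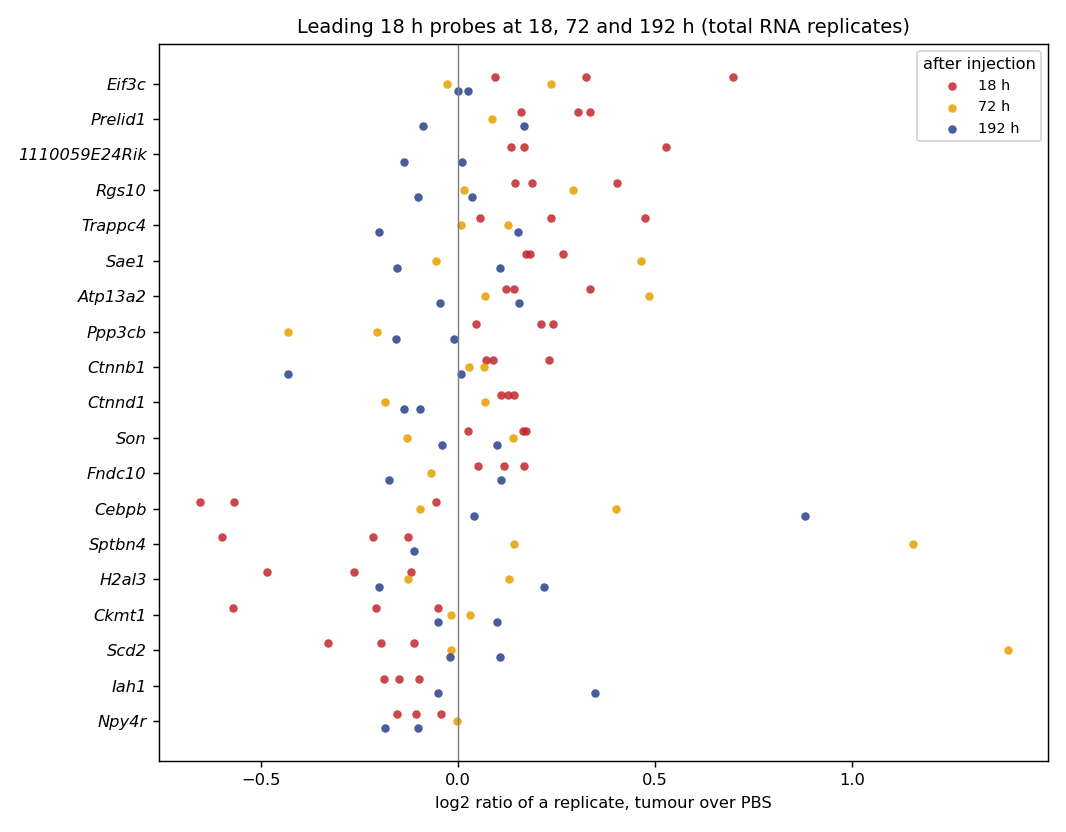
Log2 ratio of tumour-bearing over PBS mice (horizontal axis) in single total RNA replicates at 18 h (3), 72 h (2) and 192 h (2), for the 19 genes with 1 sign on all 6 arrays at 18 h. The 18 h points lie on 1 side of 0 because the genes were chosen so; the points of 72 h and 192 h lie on both sides.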

How the data were processed

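The 2-colour arrays were printed with oligonucleotides by the submitters, and each was scanned 3 times. Per the file headers, the deposited scanner files hold intensity values of channels A and B corrected for background; no scanning software is named there. The authors' deposited series table holds log ratios of tumour over PBS, entered as a score because base and method are not given; its column medians lay between -0.007 and 0.012, and its signs followed the dye labels (r with the scanner ratios 0.580 to 0.875). It was used as an alternative only. Its row numbers are spot positions counted by print block, an order found by that correlation.

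With limma 3.58.1 in R 4.3.3, each scan had its log2 ratios normalized by loess (span 0.3, 4 iterations), scans and then spots of 1 accession were averaged, signs were turned by the dye labels, and both orientations of a replicate were averaged. Probes among the dimmest 33.3% were dropped. limma's lmFit and eBayes tested the mean of replicates 3, 4 and 5 against 0, using 2 residual degrees of freedom and a prior worth 5.57, with adjustment by Benjamini-Hochberg at 0.05. The same method served for the dye effect and for differences between times. RefSeq's table for GRCm38.p6 named 4855 of the 9008 accessions directly and 4057 by gene number; 85 kept the platform's symbol and 11 with several symbols were not named. On the 18 h arrays the brightness of ribosomal protein probes lay at mean percentiles of 66.0 to 90.7. Brightness was only weakly alike between arrays. The median rank correlation of an 18 h array with the other arrays lay between 0.23 and 0.54. For the total RNA arrays at 18 h it lay between 0.23 and 0.41. Precision is limited by the number of replicates.

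The members, the 30 gene lists and the tests were chosen with earlier results of these data known. Genes were named by a rule: the 12 higher and 12 lower probes of 1 sign on all 6 total RNA arrays with the smallest p (7 lower ones existed), up to 4 genes per list by p and the list's classical gene (such as Fos or Il6), and 4 per time difference and for the dye effect; exceptions are stated where they occur. Replicate numbers are shared between times, but the mice differ. For each probe the deviation of replicate 3 from the mean of replicates 3 and 4 was taken at each time. Between times these deviations correlated at -0.08, 0.04 and 0.15 over 1054 probes, so no block was used. The 18 h arrays were of 3 printed designs, 2 for polyA and 1 for total RNA; all total RNA arrays used, at every time, were of that 1 design. No other batch is given in the labels or headers.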

Additional observations from a re-analysis of the deposited data

Results flagged for a closer look

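One value stood apart from its group. The median log2 ratio of the 9 proteasome genes was -0.18 in polyA replicate 2, and between 0.01 and 0.06 in the other 4 replicates at 18 h, a gap that passes Dixon's 95% limit for 5 values. All 3 arrays of that replicate had the tumour RNA in Cy3, so its dye effect does not cancel. In all, 29 groups of values were checked this way and chance alone gives about 1 in 20, or 1.45 here.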

How the results depend on the processing

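In 18 alternatives the count of probes called at 18 h was 0, with lowest adjusted p between 0.220 (without replicate 4) and 0.997 by limma. Probes at an unadjusted p under 0.05 numbered 48, against 170 of 4352 where a replicate could rest on 1 orientation, 175 of 5151 with replicates 4 and 5 alone (chosen after seeing the data), 72 with all 5 replicates and a dye term, 20 of 685 with the authors' values, and 39 to 74 with 1 replicate left out. Of 321 values of the 19 leading genes, 314 kept their sign, but for many this was fixed in advance. The genes were picked for 1 sign on all 6 total RNA arrays, so leaving out a replicate could not turn it. Settings that changed only the probe filter or the estimate of spread gave back the same mean. With all 5 replicates, with or without a dye term, Rgs10 was -0.043, Ctnnd1 -0.13 and Son -0.023, and with the authors' values Fndc10 was -0.033; the cause was not tested. Of 8 lists with at least 5 tested genes, 5 medians were above 0, 5 to 6 with a replicate left out and 8 under median centring. The dye effect passed in 33 probes under median centring and in 0 to 95 with a replicate left out, and its unadjusted count of 173 became 73 to 261. With a replicate left out, 0 probes were called between 18 h and 192 h and 0 to 102 between 18 h and 72 h, while the unadjusted counts of 13 and 62 became 4 to 42 and 9 to 335. Without the Cy3 array of 72 h replicate 3 they were 23 and 40. The replicate block over replicates 3 and 4 called 0 in both, with 21 and 64 at an unadjusted p under 0.05, against 26 and 59 for the same replicates without the block; the numbers do not pair the animals. The weak signal of replicate 3 limits which genes can be tested.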
